A study of Mus musculus with 20 samples.

Results

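Knockout liver was followed from 4 to 8 weeks of age by comparing the 5 arrays titled as KO at 8 weeks with the 5 titled as KO at 4 weeks, which is 10 of the 20 arrays of the series. The other 10 arrays, 5 of WT liver at each age, served to show which steps of the knockout liver differed from those of wild-type liver. KO and WT are the genotypes labelled OGTL KO and OGTL WT, and Ogt encodes O-GlcNAc transferase. The allele, the Cre line and its promoter, the sex and strain of the mice, and any treatment shared by the groups are not stated in the labels. RNA came from powdered snap-frozen whole liver, the series text gives 5 mice per group, and each sample was hybridised to 1 Clariom S Mouse array. Values are log2 signals, a difference of 1 log2 unit is a 2-fold difference, and errors are SD with n = 5 unless stated.

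O-GlcNAc transferase adds single N-acetylglucosamine residues to serines and threonines of nuclear and cytosolic proteins, using UDP-GlcNAc made by the hexosamine pathway. Between weaning and sexual maturity the mouse liver normally stops dividing, silences the last fetal and imprinted growth genes, and takes on sex-biased expression of P450s, sulfotransferases and urinary proteins under the pattern of growth hormone release. An injured liver can in addition express interferon-induced and antioxidant genes, enlarge its bile duct compartment and activate stellate cells. These programmes were read here as gene lists.

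The arrays were alike in scale, although 254 to 274 features of each KO array exceeded 16, where the labels do not explain the scale. Array medians ran from 5.52 to 5.58 in KO, and Alb, the main hepatocyte product, was 19.57 to 19.85 in the 10 KO arrays. Eif2s3y, a gene of the Y chromosome, was 11.08 to 11.66 in the KO arrays and 11.17 to 12.09 in the WT arrays. Of the KO arrays, mice 4 and 5 at 4 weeks stood apart through skeletal muscle transcripts. Acta1, the actin of skeletal muscle, was 15.04 and 15.43 there and 4.24 to 4.74 in the other 8 KO arrays. Every count below was therefore also taken without these mice and without WT 4-week mouse 4, which held muscle transcripts as well (Acta1 15.89). A background level was taken from 1412 olfactory and vomeronasal receptor genes, as the 95th percentile of their group means, and it was 5.04 in KO at 4 weeks and 5.02 at 8 weeks. Defining T and B cell genes lay below it in all 10 KO arrays, Cd3e at 3.40 to 4.78 and Cd79a at 3.58 to 4.33. Of the 21 measured lymphocyte genes, 6 were above it at 4 weeks and 5 at 8 weeks. Between the ages 2 of the 21 rose and 2 fell in KO liver at an adjusted p below 0.05. That is near the 7.85% of all genes that rose and the 6.78% that fell. Of the 21, 14 were above background in neither KO group. Gzma fell from 5.55 ± 0.41 to below background, by at least 0.53 (adjusted p 0.00488). Gzmb fell and Zap70 rose, each with both KO group means below background. Jchain, the joining chain of antibodies secreted by plasma cells, which was singled out after its values were seen, was below background at 4 weeks (3.63 to 4.27) and read 5.64, 4.51, 6.20, 4.95 and 8.4 at 8 weeks, a rise of at least 0.90 (adjusted p 0.0032). Where the lower group was not above background, a KO change is given as "at least", and a difference from WT that involves such a group compares measured signals and is not exact. The array numbers in the titles run with the groups, so array order and group cannot be told apart.

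The transcriptome of the knockout liver moved widely between the ages. Of 19505 genes, 1532 rose and 1323 fell at an adjusted p below 0.05 (limma, Benjamini-Hochberg), or 14.6% in all, 7.85% higher and 6.78% lower. Of these, 498 rose and 510 fell by at least 1 log2 unit. The KO arrays of both ages did not overlap for 1848 genes (9.47%), 934 higher and 914 lower at 8 weeks. Without the muscle-bearing arrays 1363 genes rose and 1154 fell (12.9% in all, 6.99% higher and 5.92% lower), and 2109 of the 2855 calls remained in the same direction. In WT liver 723 genes rose and 1021 fell (8.94% in all, 3.71% higher and 5.23% lower). With array medians set equal the WT split was 971 and 898, and without WT 4-week mouse 4 the number that rose was 472. The age step itself differed between KO and WT for 595 genes (3.05%), 399 with the KO step more positive and 196 with it more negative. The count of 399 was 251 without KO 4-week mouse 2 and 247 without KO 8-week mouse 1. The median step over all genes was 0.02 in KO and 0.04 in WT. KO counts for the gene lists below are to be read against the 7.85% of all genes that rose and the 6.78% that fell. WT counts are to be read against the 3.71% that rose and the 5.23% that fell in WT liver. For counts of differing steps, the shares of all genes are 2.05% with the KO step more positive and 1% with it more negative.

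The largest rises in KO liver were those of Hsd3b5, Cyp4a12a, Cyp4a12b, C6, Nox4, Ugt3a1, Slc10a2, Wfdc21, Slc25a25 and Elovl3, between 4.45 and 6.24 log2 units. The largest falls were those of Mir675, Sult2a2, Akr1c18, Sult2a1, Rgs16, Cyp2b9, Slc22a27, Sult2a5, Cyp4a14 and Ifit3b, between 4.69 and 9.35. The KO groups did not overlap for any of these 20 genes, which the naming rule required. Hsd3b5, Cyp4a12a, Cyp4a12b, C6 and Elovl3 are male-biased liver genes, and Sult2a1, Sult2a2, Cyp2b9, Slc22a27 and Cyp4a14 female-biased ones.

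Ogt itself rose in the arrays labelled KO. The 4-week arrays read 7.37, 8.30, 8.13, 8.84 and 8.07 (mean 8.14 ± 0.53), and the 8-week arrays 9.86, 10.01, 9.65, 10 and 9.55 (mean 9.81 ± 0.21). All 8-week values lay above all 4-week values. The step of 1.67 (SE 0.20) is a 3.19-fold rise, with a limma adjusted p of 9.46e-06 and a two-sided exact permutation p of 0.00794, the smallest that 5 against 5 arrays allow. Without the muscle-bearing arrays it was 1.88. In WT liver Ogt was 9.57 at 4 weeks and 10.08 at 8 weeks, a step of 0.51 that did not pass limma's test (adjusted p 0.136), although the exact permutation test of Ogt alone gave 0.0159. The KO step exceeded the WT step by 1.16 (adjusted p 0.0307), and that call was lost on leaving out 1 of 7 arrays in turn (WT 4-week mice 2, 3 and 4, WT 8-week mice 1 and 3, KO 8-week mice 1 and 2), with adjusted p from 0.0514 to 0.0605. Ogt lies on chromosome X at positions 101640011 to 101684351 of GRCm38.p6; the position of its probes relative to the deleted part is not stated in the labels, and the label is checked at 4 weeks only by a lower signal, and at 8 weeks the libraries labelled KO had nearly the WT signal. Because whole liver was measured, fewer cells of a type and less RNA per cell cannot be told apart, here and for every gene below.

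**Figure D1:**
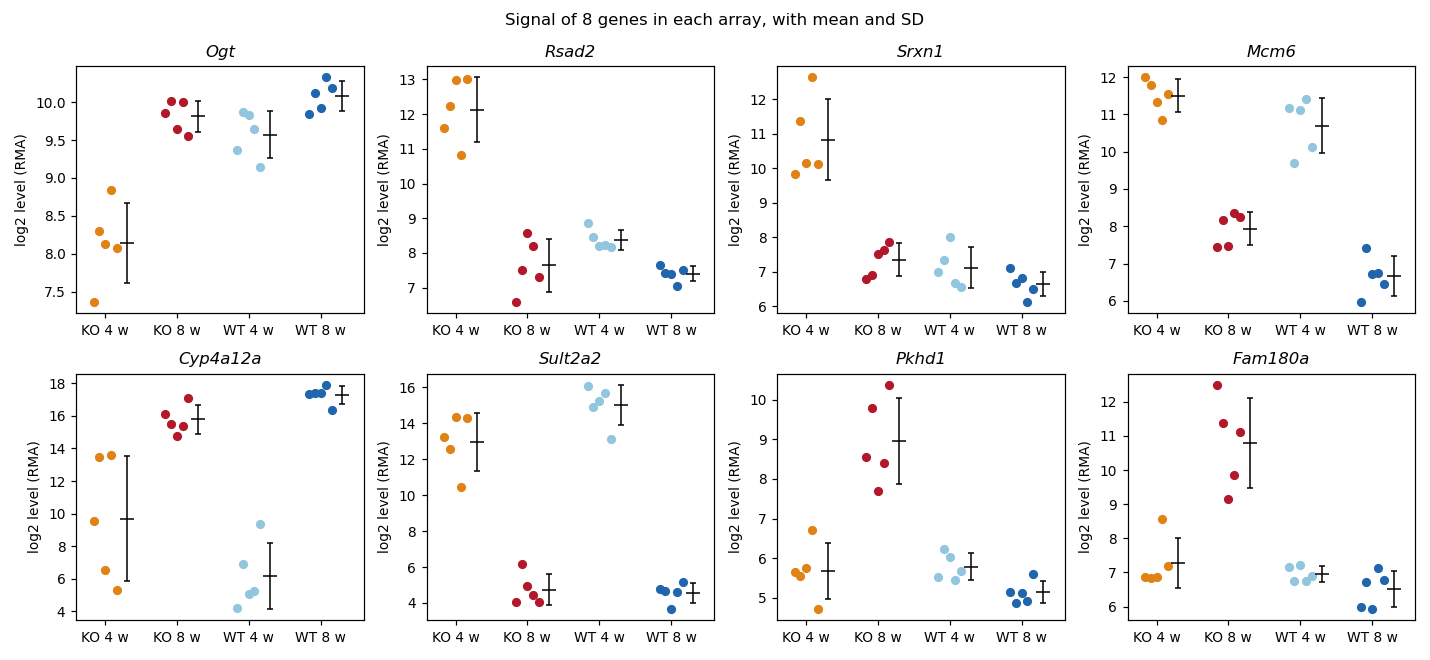
Log2 signal (vertical axis) of 8 genes in each of the 20 arrays, by group (horizontal axis); points are arrays, and the bar beside them is the mean with SD (n = 5). Ogt and the bile duct gene Pkhd1 are higher in all KO 8-week arrays than in all KO 4-week arrays, while Rsad2, Srxn1, Mcm6 and Sult2a2 are lower.

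Of the 18 measured genes of O-GlcNAc cycling and the hexosamine pathway, 2 rose and 1 fell, against 7.85% and 6.78% of all genes, and the median step was 0.10. The counts were 3 and 2 without the muscle-bearing arrays. Besides Ogt, Gnpda1, which converts glucosamine 6-phosphate back to fructose 6-phosphate, rose from 7.6 ± 0.30 to 8.62 ± 0.48 (adjusted p 0.00162). Nans, a sialic acid synthase fed by the same sugar pool, fell from 9.28 ± 0.19 to 8.03 ± 0.65 (adjusted p 0.00264). Uap1l1, related to the enzyme that makes UDP-GlcNAc, was 7.01 ± 0.46 and 6.25 ± 0.58, and its step of -0.75 passed the test only without the muscle-bearing arrays (-0.93, adjusted p 0.0238) and under 6 other settings.

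Interferon-induced genes fell as a block in KO liver. Of 32 measured genes, 28 fell and 0 rose, with a median step of -1.78. Of the 32, 26 were lower at 8 weeks without overlap between the ages, against 4.69% of all genes. Leaving out the muscle-bearing arrays gave 28 again and a median of -1.86. In WT liver 7 of the 32 fell, with a median of -0.35. The KO step was more negative than the WT step for 15 of them and more positive for 0.

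The effector Rsad2, which makes a chain-terminating nucleotide, read 11.61, 12.23, 12.99, 10.81 and 13 in the 4-week KO arrays and 6.6, 7.51, 8.58, 8.19 and 7.32 at 8 weeks. Its fall of 4.49 (SE 0.36) had an adjusted p of 3.82e-08. WT liver held 8.38 and 7.41, so the 8-week KO arrays spanned the WT level and the 4-week KO arrays lay well above it. Ifit1, which binds foreign RNA ends, read 11.53, 11.25, 11.47, 9.61 and 11.40 at 4 weeks and 5.53, 6.61, 6.62, 6.90 and 7.34 at 8 weeks. Its KO step was -4.45 (adjusted p 1.31e-07) and its WT step -0.19 (adjusted p 0.849), a difference of -4.26 (adjusted p 0.000236). The muscle-bearing mouse 4 was the lowest of the 4-week KO arrays for both genes. Cmpk2, the mitochondrial kinase next to Rsad2, fell from 10.94 ± 0.81 to 6.90 ± 0.44. Usp18, which removes ISG15 and restrains the interferon receptor, fell from 12.06 ± 0.38 to 8.05 ± 0.40. Ifit3 fell from 13.34 ± 1.03 to 9.0 ± 0.38, and Ifit3b, its near-identical neighbour whose probes may share signal with it, from 12.87 ± 1.27 to 8.17 ± 0.37. Irf7, the transcription factor that amplifies the response, read 11.12 to 13.62 at 4 weeks and 8.36 to 9.53 at 8 weeks and fell by 3.11. Its WT levels were 8.18 and 8.50, and its KO step differed from the WT step by -3.44 (adjusted p 0.00227).

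The promoters of these genes are shown because the members moved together and interferon acts through a known element, bound by the ISGF3 complex. The 250 bases before each RefSeq start site (GRCm38.p6) were searched on both strands for GAAA, any 2 bases and GAAA again (TTTC, any 2 bases and TTTC on the other strand). Of the 23 list members with a promoter in RefSeq's table, 11 held it, against 3.46% of all 27025 genes with a promoter. The windows of Ifit1 (chr19:34640639-34640888, plus strand), Ifit3 (chr19:34583279-34583528, plus strand) and Rsad2 (chr12:26456453-26456702, minus strand) follow, with matches in capitals.
Ifit1: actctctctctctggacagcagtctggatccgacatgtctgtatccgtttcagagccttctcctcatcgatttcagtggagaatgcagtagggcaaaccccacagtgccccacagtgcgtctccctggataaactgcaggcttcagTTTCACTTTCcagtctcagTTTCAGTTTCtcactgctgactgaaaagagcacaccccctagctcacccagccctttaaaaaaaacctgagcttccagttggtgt
Ifit3: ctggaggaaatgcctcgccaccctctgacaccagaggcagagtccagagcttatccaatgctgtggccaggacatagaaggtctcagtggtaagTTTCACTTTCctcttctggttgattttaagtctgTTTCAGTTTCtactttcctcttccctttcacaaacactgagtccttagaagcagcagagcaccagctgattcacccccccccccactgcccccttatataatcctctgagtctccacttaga
Rsad2: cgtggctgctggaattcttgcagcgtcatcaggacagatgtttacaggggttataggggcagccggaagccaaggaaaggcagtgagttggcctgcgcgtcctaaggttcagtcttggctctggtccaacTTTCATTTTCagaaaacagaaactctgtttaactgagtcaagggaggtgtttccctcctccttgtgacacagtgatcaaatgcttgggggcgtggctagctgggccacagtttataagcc
The matches end 95 and 76 bases before the start of Ifit1, 147 and 113 before that of Ifit3 and 111 before that of Rsad2. The windows of Cmpk2 and Irf7, which fell too, hold 0 matches. A match describes the letters only.

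Of 27 measured genes more closely tied to interferon-gamma, 14 fell and 3 rose, with a median of -1.02, and without the muscle-bearing arrays 9 fell and 4 rose. In WT liver 2 fell and 0 rose, against 5.23% and 3.71% of all genes. The KO step was more negative than the WT step for 2 genes, against 1% of all genes, or for 0 without the muscle-bearing arrays. The falls were guanylate-binding proteins and other GTPases and parts of class I antigen processing. Gbp3 fell from 10.25 ± 0.77 to 6.82 ± 0.19, Gbp7 from 11.43 ± 0.50 to 8.38 ± 0.38 and Gbp9 from 8.84 ± 0.56 to 6.70 ± 0.31. Gbp7 and Gbp9 also fell in WT liver, by 1.82 and by 1.29, and the difference between the steps did not pass the test for Gbp3, Gbp7 or Gbp9 (adjusted p 0.0778, 0.436 and 0.37). WT 4-week mouse 1 had a mean over this list of 11.32, against 8.65 to 8.99 in the other WT 4-week arrays. In the WT 4-week arrays Gbp3 had a median of 7.33 and a highest value of 10.15, and Gbp7 of 9.32 and 12.97. The WT steps and the tests of the difference include mouse 1, also without the muscle-bearing arrays. The 3 rises were the class II genes H2-Aa, H2-Ab1 and H2-Eb1. H2-Eb1 read 7.57, 8.11, 7.85, 8.25 and 8.30 at 4 weeks and 10.39, 10.63, 9.24, 9.45 and 11.02 at 8 weeks, a rise of 2.13 (adjusted p 0.000262) with no overlap. In WT liver it was 6.56 and 7.44, and the difference between its steps did not pass the test. The KO step was more positive than the WT step for 0 of the 27 genes, or 1 without the muscle-bearing arrays.

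Among 38 measured chemokines, cytokines and their partners, 8 fell and 4 rose, with a median of -0.18. Without the muscle-bearing arrays 7 fell and 2 rose. The CXCR3 ligands fell most: Cxcl10 read 10.26, 11.11, 10.85, 8.94 and 11.53 at 4 weeks and 5.81, 6.32, 6.48, 6.25 and 5.93 at 8 weeks, a fall of 4.38 (adjusted p 1.21e-07), and Cxcl9 fell from 13.84 ± 0.91 to 10.16 ± 1.05. Cxcl10 ended near the WT 8-week level of 5.64. Ccl9 fell from 14.64 ± 0.30 to 13.40 ± 0.16, and in WT liver by 1.45. Cxcl12, the ligand of CXCR4 made by stromal and endothelial cells, went the other way, from 13.19 ± 0.15 to 14.71 ± 0.17 (adjusted p 4.52e-07), a step 1.08 above that in WT liver (adjusted p 0.00676).

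Antioxidant and conjugation genes of the NRF2 list also fell. Of 33 measured, 17 fell and 0 rose, with a median of -0.60. Of the 33, 11 were lower at 8 weeks without overlap between the ages, against 4.69% of all genes. Without the muscle-bearing arrays 12 fell and 1 rose. In WT liver 8 fell and 5 rose (8 and 3 without the muscle-bearing arrays), and the KO step was more negative than the WT step for 8 and more positive for 1.

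Srxn1, the sulfiredoxin that repairs peroxiredoxins, read 9.84, 11.36, 10.16, 12.64 and 10.12 in the 4-week KO arrays and 6.78, 6.90, 7.52, 7.64 and 7.86 at 8 weeks. It fell by 3.48 (adjusted p 5.19e-06) against a WT step of -0.47, a difference of -3.01 (adjusted p 0.00578). The highest 4-week value was that of muscle-bearing mouse 4, and the step was -3.11 without the muscle-bearing arrays. Gstm3, a glutathione S-transferase, fell from 17.82 ± 0.40 to 15.33 ± 0.41. Cbr1, a carbonyl reductase, fell from 13.22 ± 0.28 to 11.31 ± 0.27, and Pgd, which supplies NADPH in the pentose phosphate pathway, from 10.98 ± 0.64 to 8.87 ± 0.23. All 3 remained above the WT 8-week means of 13.49, 10.50 and 8.58. Their WT medians fell too, from 14.79 to 13.55 for Gstm3, 11.8 to 10.5 for Cbr1 and 9.72 to 8.43 for Pgd. For none of the 3 did the KO step differ from the WT step at the threshold.

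The Srxn1 promoter is shown for the element bound by NRF2 with small Maf proteins, searched as TGANTCAGC (reverse complement GCTGANTCA) on both strands. Of the 29 list members with a known promoter, 5 held it, against 1.17% of all genes. The window is chr2:152105274-152105523 (plus strand), and the match, in capitals, ends 37 bases before the start. The windows of Cbr1, Gstm3 and Pgd hold 0 matches.
Srxn1: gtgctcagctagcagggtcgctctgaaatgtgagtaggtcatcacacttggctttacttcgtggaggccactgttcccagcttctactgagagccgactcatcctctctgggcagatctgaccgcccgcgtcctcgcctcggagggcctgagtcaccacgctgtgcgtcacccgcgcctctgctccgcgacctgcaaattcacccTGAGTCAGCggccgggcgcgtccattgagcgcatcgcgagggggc

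Of 31 unfolded protein and ATF4 genes, 5 fell and 0 rose (5 and 1 without the muscle-bearing arrays), with a median of -0.20. Fgf21, a hormone released by a stressed or fasting liver, read 5.38, 7.22, 7.65, 6.87 and 5.15 at 4 weeks and 4.01 to 4.60 at 8 weeks, below background, a bounded step of -1.43 or lower (adjusted p 0.000262). WT liver was at 4.25 and 4.31. Ddit3, the proapoptotic factor CHOP, fell from 9.12 ± 0.71 to 7.75 ± 0.64, and its step was 1.77 below that in WT liver (adjusted p 0.0341). Psat1, of serine synthesis, fell from 6.73 ± 0.19 to 5.62 ± 0.43 and Nupr1 from 9.41 ± 1.18 to 7.65 ± 0.42. The steps of Psat1 in KO and WT liver were -1.11 and -1.0.

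Of 26 cell death genes, 5 fell and 1 rose in KO liver (4 and 0 without the muscle-bearing arrays), with a median of -0.15. In WT liver 2 fell and 0 rose, with a median of -0.17. The KO step was more negative than the WT step for 1 gene, or 0 without the muscle-bearing arrays. Mlkl, the effector of necroptosis, read 11.37, 11.31, 10.69, 11.01 and 11.20 at 4 weeks and 9.44, 9.15, 9.19, 9.08 and 9.50 at 8 weeks, a fall of 1.84 (adjusted p 0.000105). The nucleic acid sensor Zbp1, which is itself interferon-induced, fell from 8.42 ± 0.73 to 6.23 ± 0.38. Fas, a death receptor, fell from 8.20 ± 0.16 to 7.33 ± 0.31. The WT medians at 4 and 8 weeks were 9.08 and 8.44 for Mlkl, 6.42 and 6.02 for Zbp1, and 7.95 and 7.61 for Fas. The difference between the KO and WT steps did not pass the test for Mlkl, Zbp1 or Fas. Tnfrsf12a, the TWEAK receptor of regenerating liver, fell from 10.08 ± 0.65 to 8.07 ± 0.55, a step 1.65 below that in WT liver (adjusted p 0.0432).

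Cell cycle genes fell in both genotypes. Of 51 measured, 43 fell in KO and 46 in WT liver and 0 rose in either, with medians of -1.56 and -1.82. The steps differed between the genotypes for 1 gene, Stmn1, and for 0 without the muscle-bearing arrays (Stmn1 adjusted p 0.0599). The replicative helicase subunit Mcm6 read 12, 11.78, 11.32, 10.86 and 11.55 in the 4-week KO arrays and 7.45, 8.16, 7.46, 8.35 and 8.24 at 8 weeks, a step of -3.57 (adjusted p 1.37e-07). The WT means were 10.70 and 6.66. The polymerase clamp Pcna had steps of -1.74 in KO and -1.72 in WT liver. The primase Prim1 fell from 10.81 ± 0.55 to 7.76 ± 0.52 and the ribonucleotide reductase subunit Rrm1 from 10.06 ± 0.21 to 7.94 ± 0.46. The list mean was 7.32 to 8.23 in the 4-week KO arrays and 5.55 to 6.26 at 8 weeks, and 5.44 to 5.62 in WT at 8 weeks.

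The Mcm6 promoter (chr1:128359706-128359955, minus strand) is shown with matches to TTTNGCGC, a form of the E2F site, and its reverse complement GCGCNAAA. It holds 3 matches, of which 2 overlap on opposite strands, and they end 103, 99 and 40 bases before the start. Of the 42 list members with a known promoter, 6 held a match, against 1.31% of all genes. The windows of Pcna, Prim1 and Rrm1 hold 0 matches.
Mcm6: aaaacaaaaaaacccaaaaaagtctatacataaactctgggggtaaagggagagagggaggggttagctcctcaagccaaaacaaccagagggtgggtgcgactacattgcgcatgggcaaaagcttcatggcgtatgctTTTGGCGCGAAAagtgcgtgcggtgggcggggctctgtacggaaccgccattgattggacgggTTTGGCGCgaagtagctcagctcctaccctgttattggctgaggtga

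The largest fall of all was that of a feature annotated to Mir675, which also carries the records of its host transcript H19, so the signal cannot be assigned to the microRNA. H19 is a maternally expressed imprinted RNA of the fetal liver, and Mir675 lies within it on chromosome 7 (chr7:142577064-142577147, minus strand, GRCm38.p6). The feature read 15.09, 12.72, 17.51, 14.57 and 16.92 at 4 weeks and 5.37, 4.89, 7.91, 5.30 and 6.59 at 8 weeks in KO liver, a fall of 9.35 (SE 1.22, adjusted p 1.95e-05). WT liver fell from 10.82 to below background, and the difference between the steps did not pass the test (-3.68, adjusted p 0.301). The mature sequences, with the seed (bases 2 to 8) in capitals, are given because this locus changed most; the array did not measure them.
mmu-miR-675-5p: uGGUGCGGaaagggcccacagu
mmu-miR-675-3p: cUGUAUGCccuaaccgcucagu

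Of 24 fetal and imprinted genes, 5 fell and 0 rose in KO liver, with a median of -0.75 (-0.35 without the muscle-bearing arrays), and 7 fell in WT liver. Afp, the fetal albumin-like protein, read 9.93, 8.74, 9.83, 8.13 and 8.81 at 4 weeks and 6.34, 6.37, 6.05, 6.67 and 7.82 at 8 weeks, a fall of 2.44 (adjusted p 1.36e-05). In WT liver it was already 6.55 at 4 weeks and was 6.42 at 8 weeks, and the steps differed by -2.31 (adjusted p 0.00544). The fetal RNA-binding protein Igf2bp3 fell by 1.77 in KO and by 2.21 in WT liver. Mest fell from 7.92 ± 0.45 to 6.04 ± 0.13, less than in WT liver by 1.86 (adjusted p 0.0145). Gpc3, an oncofetal proteoglycan, fell from 8.95 ± 0.24 to 6.41 ± 1.15 and in WT liver from 7.68 to below background.

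Many male-biased genes rose and many female-biased genes fell in KO liver, with list medians nearer to 0 than in WT liver. Of 32 male-biased genes, 19 rose and 0 fell, with a median of 1.30, against 27 higher and 1 lower with a median of 2.48 in WT. Of 47 female-biased genes, 21 fell and 4 rose, with a median of -0.94, against 36 lower and 0 higher with a median of -2.49 in WT. The KO step was smaller than the WT step for 7 male-biased genes and larger for 1, and it was more positive for 18 female-biased genes and more negative for 0.

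**Figure D2:**
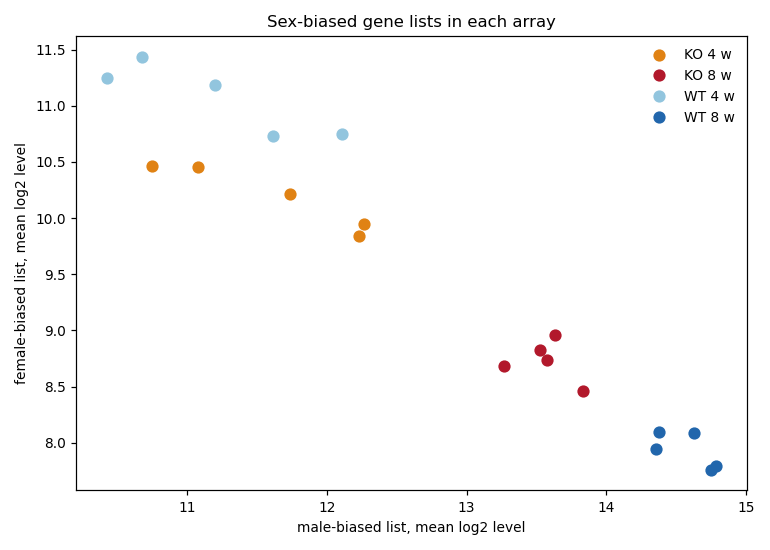
Mean log2 level of the 32 measured male-biased genes (horizontal axis) against that of the 47 female-biased genes (vertical axis) in each of the 20 arrays, coloured by group. The KO 8-week arrays, at 13.27 to 13.83 on the male-biased axis, lie between the 4-week arrays of both genotypes and the WT 8-week arrays, at 14.36 to 14.79.

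Within the male-biased list the 4-week KO mice differed widely from each other. The arachidonic acid hydroxylase Cyp4a12a read 9.58, 13.45, 6.57, 13.58 and 5.29 at 4 weeks and 16.11, 15.53, 14.77, 15.38 and 17.10 at 8 weeks, a rise of 6.08 (SE 1.23, adjusted p 0.0016). Mice 2 and 4 were high and mice 3 and 5 low among the 4-week arrays. The steroid dehydrogenase Hsd3b5 was likewise lowest in mice 3 and 5, with mouse 4 highest, at 8.75, 8.51, 5.73, 9.60 and 5.72 at 4 weeks and 15.12, 14.74, 11.99, 13.88 and 13.79 at 8 weeks, and rose by 6.24. Cyp4a12b, a close paralog of Cyp4a12a whose probes may share its signal, rose by 5.93, and the complement component C6 by 5.54.

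The fatty acid elongase Elovl3 read 11.73, 11.99, 9.75, 12.10 and 8.67 at 4 weeks and 16.48, 15.54, 15.00, 15.69 and 13.79 at 8 weeks. In WT liver it rose from 5.47 to 16.77, so the KO step of 4.45 was 6.85 smaller than the WT step (adjusted p 0.00193), with the 4-week KO arrays above the WT mean of that age. Cyp7b1, the oxysterol hydroxylase of the alternative bile acid pathway, rose from 9.65 ± 0.48 to 14.09 ± 0.84, 3.05 less than in WT liver (adjusted p 0.00327), and here the shortfall lay at 8 weeks, where WT was at 16.84. The transporter Slc22a28 rose from 9.87 ± 0.38 to 13.46 ± 0.36, by 1.17 more than in WT liver (adjusted p 0.0315), and Ugt2b1, a glucuronosyltransferase, from 15.58 ± 0.48 to 17.46 ± 0.27. Of 8 measured major urinary protein genes, near-identical copies whose signals are hard to separate, 7 rose with a median of 2.11. Without the muscle-bearing arrays 4 rose. Mup9 read 18.57, 18.50, 14.21, 17.26 and 13.93 at 4 weeks and 19.11 to 19.51 at 8 weeks, with mice 3 and 5 again lowest. Mup5 rose by 2.07 and Mup21 by 2.43; the step of Mup6, 2.43, was lost without the muscle-bearing arrays (1.84, adjusted p 0.0566).

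Among the female-biased genes the sulfotransferase Sult2a2 read 13.23, 12.59, 14.37, 10.43 and 14.29 at 4 weeks and 4.07, 6.16, 4.95, 4.44 and 4.08 at 8 weeks. It fell by at least 7.96 (adjusted p 1.7e-08), and WT liver fell from 15.02 to below background. Sult2a1, close to it in sequence, fell by 6.87 and Cyp2b9, a P450, by 5.89. The transporter Slc22a27 read 11.16 to 12.01 at 4 weeks and 5.73, 7.53, 5.78, 7.54 and 6.33 at 8 weeks. Its step of -4.99 lay 3.42 above that of WT liver in measured signal (adjusted p 0.000512), whose 8-week mean of 4.29 was below background. Slc22a29 fell from 9.18 ± 0.18 to 6.43 ± 0.61, a step of -2.75 against -3.12 in WT liver. Cyp4a14, a fatty acid hydroxylase, read 15.34 to 16.58 at 4 weeks and 9.46, 10.06, 11.54, 13.27 and 11.01 at 8 weeks, and fell 3.30 less than in WT liver (adjusted p 0.0244). Hao2, a hydroxyacid oxidase, read 9.71, 7.57, 9.14, 7.73 and 9.80 at 4 weeks and 3.65 to 4.52 at 8 weeks. It fell by at least 3.77 in KO liver, and WT liver fell from 12.67 to below background, so that both genotypes ended below background.

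Other large steps were shared with WT liver. The progesterone-metabolising Akr1c18 fell by 7.54 in KO and to below background in WT, and the G protein regulator Rgs16 fell by 6.38 and 6.47. Rgs16 was uneven at 8 weeks in KO liver, at 8.45, 5.45, 4.97, 5.94 and 10.01. The NADPH oxidase Nox4 was below background at 4 weeks in KO liver (4.06 to 4.78) and read 10.30, 10, 8.61, 9.82 and 9.85 at 8 weeks, a rise of at least 4.68 (adjusted p 1.07e-11), and it rose to 11.11 in WT. Sult2a5 fell by 4.87, Ugt3a1, a glycosyltransferase, rose by 5.30, Wfdc21 by 4.57 and the mitochondrial carrier Slc25a25 by 4.51, and for none of these 4 did the KO step differ from the WT step at the threshold. The bile acid importer Slc10a2 read 5.46 to 6.31 at 4 weeks and 11.08, 10.48, 11.27, 9.55 and 11.75 at 8 weeks. Its rise of 5.07 exceeded that of WT liver by 2.05 (adjusted p 0.0272).

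**Figure D3:**
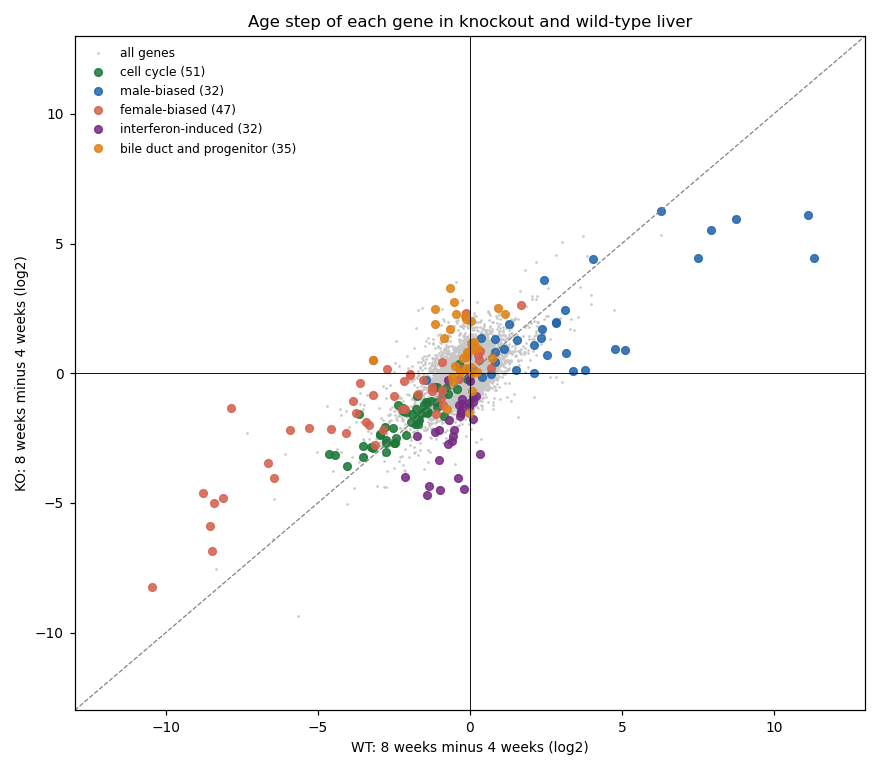
Age step (8 weeks minus 4 weeks, log2) of each of the 19505 genes in WT liver (horizontal axis) and KO liver (vertical axis); coloured points are the measured members of 5 gene lists, and the dashed line marks equal steps. Cell cycle genes lie near the line in the lower left, interferon-induced genes have a median of -1.78 in KO and -0.35 in WT, and bile duct genes have a median of 0.89 in KO (0.58 with members below background set to their bound) and -0.11 in WT.

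Bile duct and progenitor genes rose in KO liver. Of 35 measured, 19 rose and 3 fell, with a median of 0.89. The median was 0.58 with members below background at 4 or 8 weeks set to their bound, and without the muscle-bearing arrays 17 rose and 2 fell. In WT liver 1 rose and 1 fell, against 3.71% and 5.23% of all genes. The KO step was more positive than the WT step for 10 genes and more negative for 1, against 2.05% and 1% of all genes.

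Pkhd1, the fibrocystin of bile duct cilia, read 5.66, 5.54, 5.75, 6.72 and 4.71 at 4 weeks and 8.55, 9.78, 7.70, 8.41 and 10.38 at 8 weeks. Its rise of 3.29 (SE 0.39, adjusted p 6.16e-06) stood 3.93 above the WT step in measured signal (adjusted p 0.000512), WT liver being below background at 8 weeks. Mouse 5 was highest and mouse 3 lowest of the 8-week KO arrays. The same order of these mice was seen for the cholangiocyte markers Epcam (8.83, 9.61, 7.50, 8.36 and 10.74 at 8 weeks against 5.62 to 7.31 at 4 weeks), Krt7 (7.75, 8.45, 6.53, 7.14 and 10.26 against 5.52 to 6.46) and Tspan8 (11.19, 11.59, 9.28, 10.08 and 13.06 against 6.55 to 10.08). Krt19 rose by 1.34 (adjusted p 0.0374), which did not pass without the muscle-bearing arrays (1.27, adjusted p 0.0795). Sox9, the progenitor and duct factor, rose by 2.28 (adjusted p 0.000262) and was 6.97 to 9.17 at 8 weeks against 5.47 to 6.50. Anxa13 rose from 6.20 ± 0.56 to 8.28 ± 0.82. The epithelial factor Ehf was below background at 4 weeks (4.97 ± 0.17) and reached 7.18 ± 1.14, a rise of at least 2.14. The 3 falls, Krt8, Krt18 and Wfdc2, include the keratins that hepatocytes themselves carry. Krt18 read 14.39, 13.89, 13.06, 13.77 and 13.72 at 4 weeks and 11.84, 12.23, 12.35, 12.22 and 12.49 at 8 weeks, a fall of 1.54 with WT means of 11.67 and 11.63.

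Stellate cell and matrix genes moved both ways in KO liver, 10 of 46 higher and 8 lower, with a median of 0.38 (13 higher, 5 lower and 0.47 without the muscle-bearing arrays). In WT liver 1 rose and 15 fell, with a median of -0.77. The KO step was more positive for 15 genes and more negative for 0.

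The receptor Pdgfrb, a marker of stellate cells and pericytes, read 7.37, 7.43, 7.50, 7.58 and 7.18 at 4 weeks and 9.47, 10.10, 8.39, 9.06 and 9.39 at 8 weeks. It rose by 1.87 (adjusted p 6.01e-06) and fell by 0.95 in WT liver. Sparcl1, a matricellular protein, read 8.46, 8.02, 8.72, 10.53 and 9.14 at 4 weeks and 12.59, 12.43, 10.12, 10.23 and 12.07 at 8 weeks, with overlap through muscle-bearing mouse 4. Its step was 2.51, and 3.09 without the muscle-bearing arrays. The secreted protein Fam180a read 6.87, 6.84, 6.87, 8.56 and 7.19 at 4 weeks and 12.50, 11.39, 9.14, 9.85 and 11.12 at 8 weeks, a rise of 3.53 (adjusted p 1.65e-05), and WT liver held 6.96 and 6.51. Mouse 3 was the lowest 8-week KO array for Pdgfrb, Sparcl1 and Fam180a, as for the bile duct genes above. Lum, a collagen-binding proteoglycan, rose by 1.96 (adjusted p 0.00164).

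Of the 8 falls in this list, those of Postn, Nid1, Sparc, Tagln and Gpc3 passed the test in WT liver as well, and those of Acta2, Myl9 and Eln did not. The matricellular Postn had steps of -2.77 in KO and -2.99 in WT liver, and the basement membrane protein Nid1 of -1.81 and -2.39. The contractile myofibroblast marker Acta2 read 8.75, 8.07, 8.93, 10.89 and 8.97 at 4 weeks and 6.16 to 7.13 at 8 weeks, a fall of 2.47 (adjusted p 0.00474), or 1.93 without the muscle-bearing arrays. The stellate markers Lrat and Reln had steps of 0.62 (adjusted p 0.263) and 0.36 (adjusted p 0.325).

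Of 28 collagen chains, 2 rose and 1 fell, against 7.85% and 6.78% of all genes. Their median of -0.01 turned positive without the muscle-bearing arrays (0.02) or with array medians set equal. Col1a1 read 7.83, 7.68, 7.61, 9.16 and 8.51 at 4 weeks and 8.41, 8.89, 7.40, 7.20 and 8.65 at 8 weeks, a step of -0.05 (adjusted p 0.956). The 2 highest 4-week values were those of the muscle-bearing mice, and without them the step was 0.40 (adjusted p 0.468). Col27a1 rose from below background to 5.25 ± 0.31, by at least 0.21. Of 21 matrix metalloproteinases and their inhibitors, 3 rose and 2 fell (5 and 2 without the muscle-bearing arrays), against 7.85% and 6.78% of all genes. The collagenase Mmp13 read 7.29, 8.06, 7.97, 8.12 and 7.56 at 4 weeks and 4.05, 6.01, 4.93, 4.92 and 5.85 at 8 weeks, a step of -2.65 (adjusted p 3.25e-06), with both WT groups below background at 3.84 and 4.03. The gelatinase Mmp2 read 7.80 to 9.29 at 4 weeks and 10.98, 11.24, 8.14, 9.29 and 10.77 at 8 weeks, a rise of 1.73 (adjusted p 0.0092) that missed the threshold when only KO arrays were fitted (adjusted p 0.0508). The inhibitor Timp2 rose from 9.0 ± 0.44 to 10.98 ± 1.05, 2.71 above the WT step (adjusted p 0.00572).

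**Figure D4:**
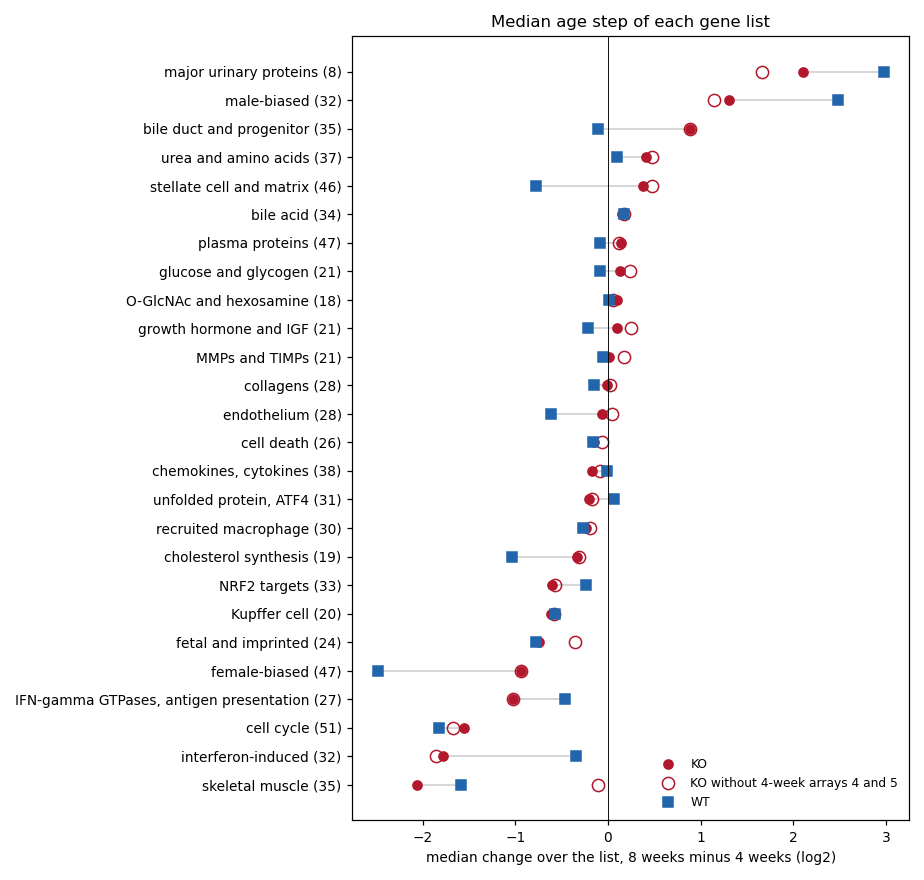
Median age step (log2, horizontal axis) of each gene list (rows, measured members in brackets) in KO liver, in KO liver without 4-week mice 4 and 5, and in WT liver. Interferon-induced genes (-1.78 in KO, -0.35 in WT) and bile duct genes (0.89, or 0.58 with members below background set to their bound, and -0.11) lie apart between the genotypes, cell cycle genes (-1.56 and -1.82) lie close, and the skeletal muscle median goes from -2.06 to -0.11 when the muscle-bearing mice are left out.

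Kupffer cell genes fell in part in both genotypes, 10 of 20 in KO and 8 in WT liver with 0 higher, at medians of -0.62 and -0.57, and the steps differed for 0 of them at the threshold. With the muscle-bearing arrays left out 10 fell in KO and 5 in WT liver. The lectin Clec4f read 10.19, 9.54, 9.74, 10.02 and 10.02 at 4 weeks and 8.23, 7.87, 7.30, 8.34 and 6.98 at 8 weeks in KO liver, a step of -2.16 (adjusted p 3.12e-06), against -1.40 in WT. Cd5l, a secreted scavenger, fell from 12.09 ± 0.25 to 10.16 ± 0.58, and Spic, a factor of iron-handling macrophages, from 7.76 ± 0.74 to 6.19 ± 0.34. Siglec1, an interferon-responsive adhesion receptor, fell from 5.34 ± 0.22 to below background.

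Genes of recruited macrophages went both ways in KO liver, 5 of 30 higher and 6 lower, with a median of -0.24. In WT liver 1 rose and 6 fell, with a median of -0.27. The lysozyme gene Lyz2 read 10, 10.25, 9.85, 10.03 and 10.65 at 4 weeks and 12.47, 12.51, 10.94, 11.91 and 12.04 at 8 weeks, a rise of 1.82 (adjusted p 4.04e-05) and 2.10 above the WT step (adjusted p 0.00267). The lipid-associated marker Gpnmb rose by 0.89 in KO liver and was below background in both WT groups, and Trem2 was below background in both KO groups on average (4.09 to 4.56 and 4.70 to 5.16 over the arrays). Lpl, a lipase also made by the young liver, fell from 12.61 ± 0.88 to 10.44 ± 0.34 and by 2.38 less than in WT liver (adjusted p 0.0191). Cd63, a lysosomal tetraspanin, fell from 12.46 ± 0.45 to 10.63 ± 0.81. In WT liver the Cd63 median fell from 9.37 to 6.75, and its steps did not differ between the genotypes at the threshold. Of 28 endothelial genes, 2 fell and 0 rose in KO liver, where 6.78% of all genes fell and 7.85% rose. In WT liver 10 fell, and without the muscle-bearing arrays 1 fell and 1 rose in KO. The KO step was more positive than the WT step for 3, against 2.05% of all genes. Lyve1, a hyaluronan receptor of sinusoids, fell from 9.77 ± 0.63 to 8.16 ± 0.63, and Plvap, of fenestral diaphragms, by 0.70, a call lost without the muscle-bearing arrays (-0.58, adjusted p 0.0872), without KO 4-week mouse 5 (-0.57) and without KO 8-week mouse 1 (-0.61). In WT liver the median of Lyve1 fell from 9.46 to 7.11 and that of Plvap from 8.69 to 7.99. For neither did the KO step differ from the WT step at the threshold. Of the 28 endothelial genes, 14 rose and 14 fell in mean in KO liver. Bmp2 (group medians 5.20 and 5.66) and Maf (8.02 and 8.68) rose and passed the test only under some of the alternatives.

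Of 47 plasma protein genes, 13 rose and 1 fell in KO liver, with a median of 0.14 that ran from 0.0057 to 0.16 over the alternative settings. In WT liver 6 rose and 4 fell, with a median of -0.08. The terminal complement genes C6, C8a, C8b and C9 were among the rises; C9 read 13.96 to 14.73 at 4 weeks and 15.58 to 16.57 at 8 weeks and rose by 1.99 (adjusted p 1.21e-05). C6, C8a, C8b and C9 are also in the male-biased list. In WT liver the median of C9 rose from 13.71 to 16.84, and C6 rose by 7.92 there against 5.54 in KO liver. For neither did the KO step differ from the WT step at the threshold. The coagulation factors F5 and F11 rose by 0.63 and 0.92, and F11 by 1.20 more than in WT liver (adjusted p 0.00853), where it was at 12.53 and 12.25. Of 37 urea cycle and amino acid genes, 12 rose and 0 fell, with a median of 0.41, against 3 and 1 in WT (1 and 1 without the muscle-bearing arrays). The transaminase Kyat1 rose from 12.31 ± 0.47 to 13.61 ± 0.48, 1.67 above the WT step (adjusted p 0.0154), and Csad, of taurine synthesis, from 11.84 ± 0.31 to 13.60 ± 0.65, a step of 1.76 against 1.80 in WT liver. The ornithine transaminase Oat rose by 1.09 and Haao, of tryptophan breakdown, by 0.83.

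Of 34 bile acid genes, 7 rose and 3 fell, with a median of 0.15. Fgfr4, the hepatocyte receptor through which intestinal FGF15 restrains bile acid synthesis, read 5.50, 4.79, 5.30, 4.88 and 6.17 at 4 weeks and 7.48, 7.38, 8.62, 7.80 and 7.0 at 8 weeks. It rose by 2.33 (adjusted p 5.07e-06) to the WT level, which was 7.43 and 7.57 at the 2 ages. Cyp27a1, the first enzyme of the alternative pathway, rose from 13.94 ± 0.20 to 15.36 ± 0.21, and Slc51b, a basolateral bile acid exporter subunit, fell by 2.14 in KO liver and to below background in WT. Of 19 cholesterol synthesis and uptake genes, 4 fell and 1 rose in KO liver, against 12 lower in WT. With the muscle-bearing arrays left out 2 fell in KO and 8 in WT liver. Idi1 fell by 1.12 and Fdft1 by 0.98; Hmgcs1 fell by 1.10, a call lost without the muscle-bearing arrays (-1.02, adjusted p 0.0572). Stard4, a sterol carrier, rose from 10.05 ± 0.47 to 10.99 ± 0.29, 1.27 above the WT step (adjusted p 0.0181).

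Of 21 genes of glucose and glycogen metabolism, 5 rose and 3 fell, with a median of 0.13. G6pc, which releases free glucose, rose from 14.49 ± 0.81 to 16.75 ± 0.48 (adjusted p 0.000998), and the insulin receptor substrate Irs2 from 8.69 ± 0.41 to 10.49 ± 0.36. Gcgr, the glucagon receptor, rose by 1.02. The WT medians rose too, from 15.17 to 16.78 for G6pc, 9.64 to 10.44 for Irs2 and 9.09 to 10.09 for Gcgr. For none of G6pc, Irs2 and Gcgr did the KO step differ from the WT step at the threshold. Ugp2, which makes UDP-glucose, read 16.74, 17.01, 16.64, 17.38 and 16.07 at 4 weeks and 15.06 to 15.80 at 8 weeks, a fall of 1.44 to the WT level of 15.71 and 15.35 (difference from the WT step -1.08, adjusted p 0.0317). Of 21 growth hormone and IGF genes, 4 rose and 2 fell, or 2 and 1 without the muscle-bearing arrays. The growth hormone receptor Ghr read 15.36 to 15.84 at 4 weeks and 16.65 to 16.95 at 8 weeks, a rise of 1.07 (adjusted p 9.12e-05), and Igfals, which stabilises circulating IGF, rose from 8.91 ± 0.43 to 10.67 ± 0.50. The WT medians at 4 and 8 weeks were 16.43 and 17.08 for Ghr and 11.12 and 11.3 for Igfals. The difference between the steps did not pass the test for Ghr or Igfals.

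**Figure D5:**
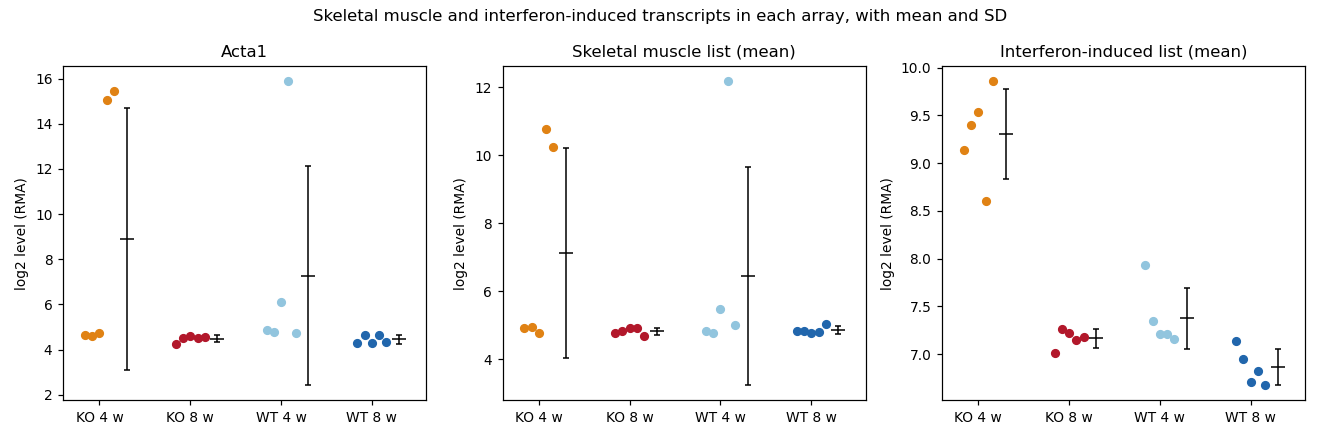
Log2 signal of Acta1, mean of the 35 skeletal muscle genes and mean of the 32 interferon-induced genes (vertical axes) in each array by group; points are arrays, and the bar is the mean with SD (n = 5). KO 4-week mice 4 and 5 and WT 4-week mouse 4 stand apart in Acta1 (15.04, 15.43 and 15.89) and in the muscle mean, while the interferon mean is 8.60 to 9.86 in all 5 KO 4-week arrays and 7.01 to 7.26 at 8 weeks.

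None of the 35 skeletal muscle genes was called in the KO step (limma; 0 at the adjusted threshold), although their median step was -2.06. Myl1 read 4.65, 5.36, 4.86, 17.42 and 16.88 at 4 weeks and 4.67 to 5.01 at 8 weeks, and Myh2 4.14, 4.33, 4.42, 15.50 and 14.67 against 3.97 to 4.53. Without these mice the list median was -0.11 and 1 gene was called higher. The muscle mean was 10.75 and 10.24 in KO mice 4 and 5 and 4.68 to 4.94 in the other KO arrays.

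KO and WT steps used different arrays and can be set side by side. Of the genes called in KO liver, 799 were called in the same direction in WT liver, 327 higher and 472 lower, which is 28.0% of the KO calls and 45.8% of the WT calls. Another 22 were called in opposite directions. Of these, 17 rose in KO and fell in WT liver, and 5 did the reverse. Pdzk1ip1, a small membrane protein, read 8.69, 9.26, 8.62, 9.06 and 7.92 at 4 weeks and 11.86, 11.81, 9.52, 10.56 and 12.02 at 8 weeks in KO liver, a rise of 2.44, and fell from 7.90 to 6.18 in WT liver. Mmp2 and Pdgfrb, described above, are also among the 17. These genes were singled out after their values were seen.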

How the data were processed

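RNA from 20 mouse livers (4 groups of 5) was measured on Clariom S arrays. The deposited values are log2 signals, made by the authors with RMA in Affymetrix Expression Console, per the submitters' processing notes, which name no versions. Features with 1 gene symbol (19572 of 22206) were kept, the brightest feature stood for a symbol with several, and 19505 genes were tested. One limma fit (version 3.58.1, R 4.3.3) took the group means of all 20 arrays (16 residual degrees of freedom), the contrasts being 8 weeks minus 4 weeks in KO, the same in WT, and their difference. The Benjamini-Hochberg adjustment of p-values ran over all genes tested, and 0.05 was the threshold. A second fit left out the 3 muscle-bearing arrays (13 degrees of freedom). The labels do not say more of how samples were taken than that they are separate, so p-values measure the spread between these samples. The script was tested on simulated data.

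Named genes were Ogt, the 10 largest rises and falls that were called with and without the muscle-bearing arrays, did not overlap and were above background, up to 4 members per list with the smallest adjusted p, the 5 largest differences from WT in each direction, and the 3 largest falls of the muscle list; Gm-number and Rik symbols were passed over in the ranked parts. Cell type markers and the other genes named beside these were chosen after their values were seen. The groups compared, the gene lists and the named-gene rule were chosen with earlier results of these data known. Promoters and microRNA sequences are from RefSeq (GRCm38.p6).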

Additional observations from a re-analysis of the deposited data

Results flagged for a closer look

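In 252 groups of 5 KO arrays, 126 named genes at each age, 13 arrays lay far from the other 4 by Dixon's test at the 95% level. Chance gives about 1 in 20, and 13 of 252 is close to that share, so single distances listed here may be chance. KO 4-week mouse 4, one of the muscle-bearing mice, was far from the rest in log2 signal for Fam180a (8.56), Ifit1 (9.61), Tnfrsf12a (11.20) and Timp2 (9.78). KO 4-week mouse 2 stood apart for Col27a1 (4.80). At 8 weeks, mouse 5 did so for Psat1 (6.38), Ddit3 (6.64) and Prim1 (8.67), mouse 3 for Nox4 (8.61), Ugt2b1 (17.00) and Nans (6.91), mouse 4 for C9 (15.58) and mouse 1 for Acta1 (4.24). No explanation of these distances was tested.

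The age step differed between KO and WT liver, by the limma test of the difference with an adjusted p below 0.05, for 41 named genes. Over all 19505 genes the number was 595 (3.05%). The named genes were chosen partly by this test and partly by the KO step, so the count of 41 is not a share to compare with it. For 23 of the 41 the KO step minus the WT step was positive on the log2 scale. In alphabetical order these differences were Anxa13 2.21, Cxcl12 1.08, Cyp4a14 3.30, Ehf 2.38, F11 1.20, Fam180a 3.98, Fgfr4 2.19, Hao2 4.18, Kyat1 1.67, Lpl 2.38, Lyz2 2.10, Mest 1.86, Mmp2 3.52, Ogt 1.16, Pdgfrb 2.82, Pdzk1ip1 4.16, Pkhd1 3.93, Slc10a2 2.05, Slc22a27 3.42, Slc22a28 1.17, Sparcl1 4.11, Stard4 1.27 and Timp2 2.71. For 18 it was negative. These differences were Afp -2.31, Cmpk2 -3.65, Cxcl10 -3.33, Cyp7b1 -3.05, Ddit3 -1.77, Elovl3 -6.85, Fgf21 -2.20, Ifit1 -4.26, Ifit3 -3.01, Ifit3b -3.30, Irf7 -3.44, Krt18 -1.50, Mmp13 -2.84, Rsad2 -3.51, Srxn1 -3.01, Tnfrsf12a -1.65, Ugp2 -1.08 and Usp18 -1.87. At least 1 group was below background for Ehf, Fgf21, Hao2, Mmp13, Pkhd1 and Slc22a27, so their differences compare measured signals and are not exact.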

How the results depend on the processing

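The alternatives were leaving out the muscle-bearing arrays, equal array medians, repeated quantile normalization, leaving out the dimmest 25% of genes, fitting only the groups compared, the replicate block, a trended and robust variance, the mean of a symbol's features, leaving out each array and asking for 1 log2 unit. None of the 114 named genes called in KO liver changed sign in the settings run on them. Most were chosen for small p-values in the KO step, and the largest rises and falls had also to be called without the muscle-bearing arrays. Their stability was therefore partly set by the choice. Genes named beyond these were not run through all settings. Asking for 1 log2 unit left 498 higher and 510 lower genes in KO liver, 214 and 508 in WT liver, and 119 with a negative difference. Without 1 array in turn, the KO counts ran from 1151 to 1489 higher and from 1045 to 1325 lower, the WT counts from 472 (without WT 4-week mouse 4) to 733 and from 821 to 986, and those of the difference from 247 to 528 positive and from 138 to 227 negative. The positive count was 251 without KO 4-week mouse 2 and 247 without KO 8-week mouse 1. The Ogt step ran from 1.48 to 1.85. Repeated quantile normalization gave 939 higher and 936 lower genes in WT liver. KO arrays fitted alone gave 1154 higher and 1083 lower. Of the 114 named genes, chosen as said above, 106 kept their call under every alternative. The other 8 (Col5a1, Col6a3, Mmp2, Plvap, Hmgcs1, Igfbp2, Igfbp4 and Mup6) missed the threshold under at least 1, and the cause was not tested.

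The replicate numbers shared by the groups did not pair the samples: same-numbered KO arrays correlated at -0.15 to 0.03 after removal of group means. With the replicate number as a block, 1419 genes rose and 1231 fell in KO liver. The number of arrays limits the precision, and 41.9% of genes were not above background in KO liver at 4 weeks.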

Other observations

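Counts for other gene lists in the KO step are to be read against the 7.85% of all genes that rose and the 6.78% that fell, and several lie near those shares. Of 51 P450 and other xenobiotic genes, 11 rose and 14 fell, and of 40 fasting and PPAR-alpha genes 3 rose and 9 fell. The pericentral list had 7 of 21 genes higher and 2 lower, and the periportal list 6 of 21 higher and 2 lower. Of 23 metal-handling genes 5 rose and 2 fell, and of 26 lipogenic genes 2 rose and 3 fell. Of 20 p53 targets 1 rose and 4 fell, and of 23 clock genes 2 rose and 0 fell (limma, adjusted p below 0.05).

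Among lists of other cells, with the same shares of all genes as background, 2 of 21 lymphocyte genes rose and 2 fell, 1 of 21 neutrophil and erythroid genes rose and 2 fell, and 1 of 20 genes of other tissues fell.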
